A study of Mus musculus with 30 samples.

Results

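The 10 genes described here are the G1 cyclins Ccnd1, Ccnd2, Ccnd3, Ccne1 and Ccne2, the kinases Cdk4 and Cdk6, the inhibitors Cdkn1b (p27) and Cdkn2c (p18), and the retinoblastoma gene Rb1. They were chosen by name from the 55401 genes of the count table, with earlier results of these data known, and all 10 passed the filter on low counts that left 9445 genes. The cells are a mouse B cell lymphoma line with the Eµ-Myc transgene, in which the immunoglobulin heavy chain enhancer drives Myc in B lymphocytes, and with both copies of p19ARF deleted. Every group carries these alleles, the parental line included. The study evolved parallel cultures of this line in wells of 96-well plates by repeated cycles of drug and recovery, with paclitaxel or with an equivalent amount of DMSO. There were 12 DMSO control lines, 17 paclitaxel resistant lines and 1 parental line, each with 1 3′-end digital gene expression library, in which a tag near the end of the transcript is counted. All lines descend from the same parental line and each is a separate well, so the replicates are evolved cultures and not animals. Paclitaxel binds microtubules and arrests cells in mitosis. No dose for a single line and no phenotype group is given in the labels, and the comparison is between the treatments.

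The G1 genes decide whether a cell leaves G1 and copies its DNA. D-type cyclins bind Cdk4 or Cdk6 and start the phosphorylation of the retinoblastoma protein, E-type cyclins bind Cdk2 and continue it, and the phosphorylated protein releases the E2F transcription factors that drive genes of DNA replication. Cdkn2c belongs to the INK4 inhibitors, which bind Cdk4 and Cdk6, and Cdkn1b belongs to the CIP/KIP inhibitors, which restrain cyclin E with Cdk2. In B cells Ccnd2 and Ccnd3 are the D-type cyclins of normal proliferation, Cdk4 and Ccnd2 are known targets of Myc, and Arf acts on p53 through Mdm2 and not on Rb1 directly. The D-type cyclins are shown first by the start of their coding sequences, since the results turn on which of them was counted. Each opens with a short stretch that encodes the LxCxE motif, by which D-type cyclins dock on the retinoblastoma protein. The stretch is printed in capitals, and each sequence runs from the start codon on the gene's own strand (GRCm38, GENCODE M21).
Ccnd1, chr7:144939652-144939693, minus strand: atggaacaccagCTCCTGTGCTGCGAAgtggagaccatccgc
Ccnd2, chr6:127150732-127150773, minus strand: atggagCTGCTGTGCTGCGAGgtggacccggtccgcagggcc
Ccnd3, chr17:47593655-47593696, plus strand: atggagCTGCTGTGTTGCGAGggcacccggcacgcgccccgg
The motif lies at codons 5 to 9 of Ccnd1 and at codons 3 to 7 of Ccnd2 and Ccnd3. The coding sequences of these transcripts are 885, 867 and 876 bases long. The libraries count tags near the other end of each transcript, so these stretches were not themselves measured.

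Total counts ran from 1053948 to 6739131 in the DMSO control libraries, from 480919 (Pac C1) to 6682169 in the paclitaxel resistant libraries, and reached 1851837 in the parental library. On the first and second principal components of log2 CPM (counts scaled to a common library size after TMM normalization), which held 23.7% and 11.6% of the variance, 2 libraries had a negative silhouette, that is, they lay on average nearer to the class they were not labelled as. These were the library labelled DMSO 12 (silhouette -0.158) and the library labelled Pac H9 (-0.346). Abcb1b, a drug pump gene that was higher in the paclitaxel resistant lines, was at 69.8 CPM in the library labelled DMSO 12, the highest of the DMSO controls, and at 26.1 CPM in the library labelled Pac H9, the lowest of the paclitaxel resistant lines. An earlier check of these data put the labels from DMSO 12 on in doubt by a move of 1 library, the parental library included, so a line name below is the label of a library and may not be the name of its own well. Results without these 2 libraries are given below for part of the genes and shares. The figure of log2 differences shows them for every G1 gene, and other values are from all libraries unless stated. On the first component, 7 libraries stood apart from the others, at 42.8 to 89.2. They were Pac F10, Pac C11, Pac D4, Pac A6, Pac G9, Pac D7 and DMSO 11, and every other DMSO control lay at 0.056 or below and every other paclitaxel resistant line at -4.83 or below. Values without these 7 libraries are given beside several results below, and that set was chosen after the data were seen. The 9 B cell markers reported, Cd79a, Pax5 and Ebf1 among them, summed to 4782 to 8681 CPM in the DMSO control lines and 3362 to 9522 CPM in the paclitaxel resistant lines. Their median log2 difference, paclitaxel resistant minus DMSO control, was -0.26 beside 0.07 over all genes tested, with 6 of 9 negative. None passed an adjusted p under 0.01 in edgeR's test with all 29 libraries, 3 of 9 had an unadjusted p under 0.05 (25.1% of all genes), and 1 passed at 0.05 (7.55% of all genes), Cd79b (log2 difference -0.64, SE 0.161, adjusted p = 0.0132). Cd79b passed 0.01 in edgeR's likelihood ratio test (adjusted p = 0.00425), DESeq2 (0.00351) and limma-voom (0.00121). Without the libraries labelled DMSO 12 and Pac H9 the adjusted p of Cd79b was 0.00753, and Ms4a1 had a log2 difference of -2.37 (adjusted p = 0.0467) where it had -1.84 (adjusted p = 0.128) with all libraries. The part of these markers in the results below was not tested. The 5 T cell markers reached 19.4 CPM at most with Cd3e, Cd4 and Cd8a at 3 counts or fewer in every library, the 5 myeloid markers reached 50.8 CPM at most, and the 4 fibroblast and 4 epithelial markers reached 0.521 and 0.844 CPM at most. The 2 libraries of a group that differed least, DMSO 6 and DMSO 9, differed across 7940 genes by a mean chi-square of 6.21, more than sampling noise, and every library was counted on its own.

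Between the treatments, Ccnd1 was at a lower mean level and Cdk6 at a higher mean level in the paclitaxel resistant lines, and Ccnd2 was detected in most paclitaxel resistant libraries and in few of the DMSO control libraries. None of the 10 genes passed the threshold of an adjusted p under 0.01 in edgeR's quasi-likelihood test with all 29 libraries, where 208 of 9445 genes, or 2.2%, passed (0.995% on the higher side). In bulk RNA, fewer cells with a transcript and less of it in each cell cannot be told apart. At an adjusted p under 0.05, 2 of the 10 passed beside 7.55% of all genes, Ccnd1 on the lower side (343 of all genes tested, 3.63%) and Cdk6 on the higher side (370 genes, 3.92%). At an unadjusted p under 0.05 there were 4 of 10, with Ccnd2 and Ccne2 added, beside 25.1% of all genes tested. At the 0.01 threshold, edgeR's likelihood ratio test and DESeq2 each called Ccnd1 and Cdk6 (4.74% and 5.22% of all genes called), and limma-voom with quality weights called Ccnd1, Ccnd2 and Cdk6 (8.61% called). Without the libraries labelled DMSO 12 and Pac H9, the quasi-likelihood test called Ccnd2 alone, on the higher side, where 3.39% of genes were called in either direction and 1.68% on the higher side. Ccnd2 passed the filter on low counts mainly through the paclitaxel resistant libraries, so its calls are not read as support for a difference. 7 of the 10 genes had a positive fitted difference and 3 a negative one, with a median log2 difference of 0.45 beside 0.07 over all genes tested. That median changed with the method and the libraries that stood apart, since it was 0.05 in limma-voom (-0.01 over all genes) and -0.06 in edgeR's test without the 7 libraries above 40 on the first component (0.02 over all genes). After thinning to equal depth it was -0.37 over the 5 genes still tested. Ccnd2, Ccnd3, Cdkn1b, Cdkn2c and Rb1 were lost to the filter there. All of these were positive in the fit with all libraries, so the set of genes changed along with the depth. In the fit without the 7 libraries, 9 of the 10 genes were tested, Ccnd2 having been lost to the filter, and Ccnd1 alone passed at 0.01 (log2 difference -0.85, adjusted p = 0.00617), where 2.77% of genes were called.

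**Figure D1:**
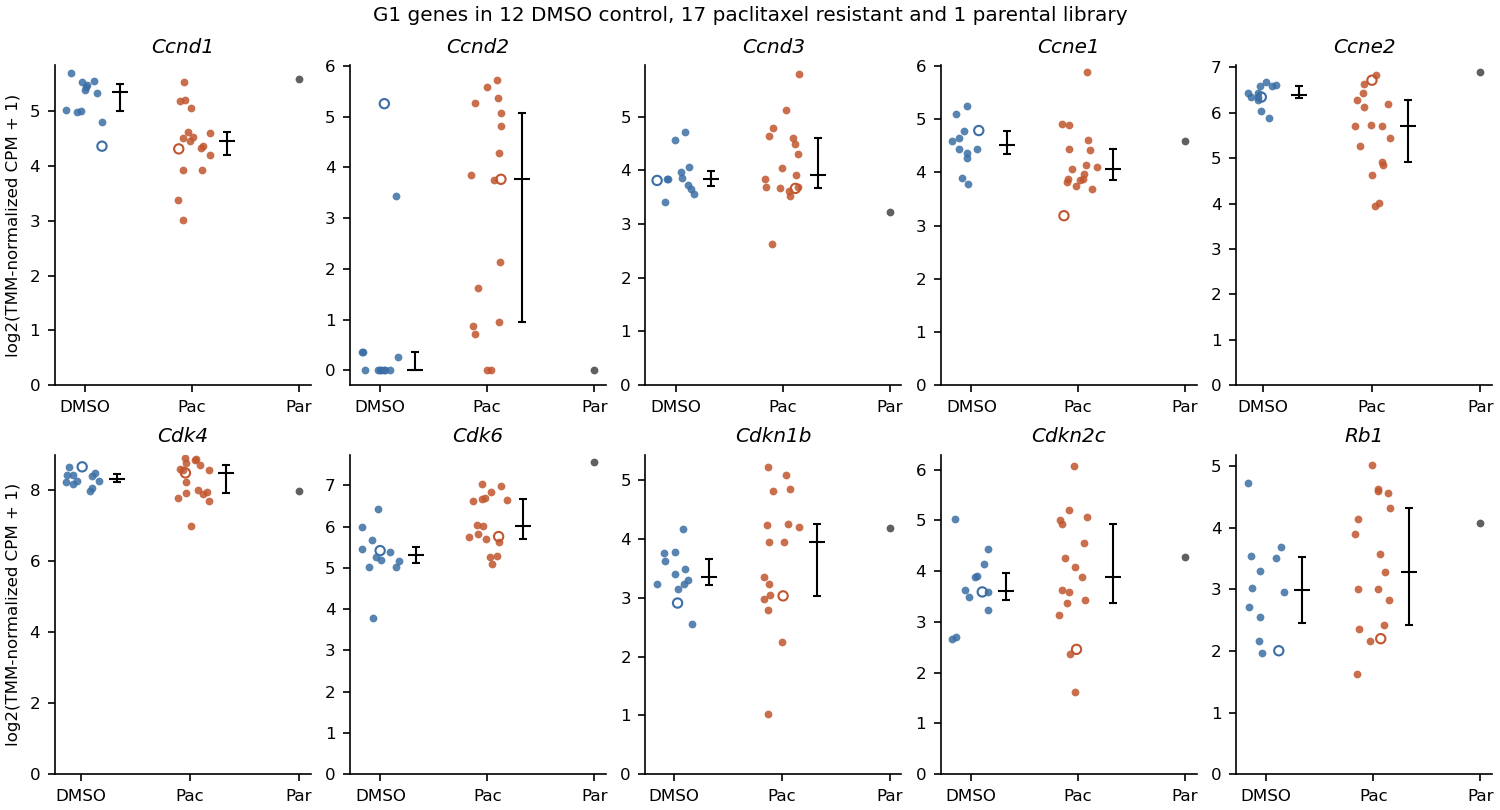
Levels of the 10 genes, as log2(TMM-normalized CPM + 1), in the 12 DMSO control (blue), 17 paclitaxel resistant (orange) and 1 parental (grey) libraries. Each point is a library, open circles are the libraries labelled DMSO 12 and Pac H9, and the bars give the median and the quartiles. Ccnd1 lies lower and Cdk6 higher in the paclitaxel resistant lines, and Ccnd2 is at or near 0 in 10 DMSO control libraries and spread from 0 to 52.0 CPM in the paclitaxel resistant lines.

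Ccnd1 (ENSMUSG00000070348.5, chr7:144929931-144939925, minus strand), the cyclin that links growth factor signals to Cdk4 and Cdk6, ranged from 19.6 to 51.3 CPM with a median of 40.1 in the DMSO control lines. It ranged from 7.03 to 45.7 CPM with a median of 21.1 in the paclitaxel resistant lines. The groups overlapped, with 16 of 17 paclitaxel resistant lines below the DMSO control median and 7 of them below the lowest control, the library labelled DMSO 12. The means were 37.4 ± 9.33 (SD, n = 12) and 22.4 ± 9.97 CPM (SD, n = 17). The log2 difference was -0.76 (SE 0.204, the absolute difference divided by the square root of F), and the adjusted p was 0.019 in edgeR's quasi-likelihood test. Pac D7 (7.03 CPM, 25 counts) and Pac C3 (9.36 CPM, 11 counts) were the lowest lines, and Pac C1 the highest, at 22 counts in the smallest library. Without the libraries labelled DMSO 12 and Pac H9 the log2 difference was -0.80 (adjusted p = 0.0124, edgeR), and leaving out any one of the 29 libraries kept the adjusted p between 0.01 and 0.0499 and the log2 difference between -0.83 and -0.67.

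Ccnd2 (ENSMUSG00000000184.12, chr6:127125162-127152193, minus strand), the D-type cyclin induced by B cell receptor and cytokine signals, had the highest fitted dispersion of the 10, that is, the widest spread relative to its level. It had 0 counts in 7 of the 12 DMSO control libraries and 1 count in 3 others (DMSO 1, DMSO 5 and DMSO 8). The remaining control libraries were DMSO 4, with 61 counts (9.79 CPM), and the one labelled DMSO 12, with 74 counts (37.2 CPM). A count of 3, the limit that 0 counts allow, corresponds to 0.435 CPM in DMSO 11 and 2.96 CPM in DMSO 9. The paclitaxel resistant lines were spread over the whole range, with more than 3 counts in 13 of 17, a median of 12.6 CPM and a maximum of 52.0 CPM in Pac D4 (243 counts). The lines above 30 CPM were Pac D4, Pac D10, Pac F10, Pac H3 and Pac H8, and those at 3 counts or fewer were Pac B2 and Pac C3 (0 counts), Pac C1 (1) and Pac D7 (3). The group means were 3.98 ± 10.8 CPM (SD, n = 12) and 17.7 ± 18.1 CPM (SD, n = 17).

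With all libraries the log2 difference of Ccnd2 was 2.27 (SE 0.916), and the adjusted p was 0.12 in edgeR's quasi-likelihood test. The dispersion of Ccnd2, 3.09, was above that of 99.97% of the genes tested. Without the libraries labelled DMSO 12 and Pac H9 the control mean was 0.960 ± 2.93 CPM (SD, n = 11), the log2 difference 3.92 (SE 0.928) and the adjusted p 0.00689. The library labelled DMSO 12 accounted for that shift, since leaving it out alone gave a log2 difference of 3.90 and an adjusted p of 0.00673, while the adjusted p stayed above 0.05 when any other single library was left out. Ccnd2 passed the filter on low counts mainly through the paclitaxel resistant libraries, so these adjusted p-values are not read as support for a difference. A fitted fold change of a gene at 0 in most controls also depends on the prior count. When every library was thinned to 480919 counts, 10 of 17 paclitaxel resistant and 1 of 12 DMSO control libraries held more than 3 counts of Ccnd2, and the gene no longer passed the filter. The annotated antisense genes that overlap Ccnd2, Gm43126 and 9330179D12Rik, had 0 and 10 counts over all 30 libraries.

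Ccnd3 (ENSMUSG00000034165.16, chr17:47505051-47599691, plus strand), the D-type cyclin most tied to lymphocyte development, ranged from 9.71 to 25.2 CPM (median 13.3) in the DMSO control lines and from 5.21 to 54.9 CPM (median 14.1) in the paclitaxel resistant lines. The log2 difference was 0.36 (SE 0.252, adjusted p = 0.385, edgeR), with a 95% interval of -0.14 to 0.85. Without Pac D7 the log2 difference was 0.16, and limma-voom gave 0.06 with all libraries. It was also 0.16 without the 7 libraries above 40 on the first component (adjusted p = 0.747, edgeR). Pac D7, the line with the lowest Ccnd1, had the highest Ccnd3 (195 counts), and Pac H3, with Ccnd2 at 37.3 CPM, had the lowest (12 counts).

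The summed level of the D-type cyclins was 56.0 ± 9.49 CPM in the DMSO control lines and 59.0 ± 19.9 CPM in the paclitaxel resistant lines (SD, n = 12 and 17), and the composition of that sum was compared next. A share of counts within a library does not depend on the scaling between libraries. It is a share of tags and not of protein or of transcripts, since genes can differ in how well their 3′ ends are tagged, and the tests below compare 1 gene between the groups. The shares of Ccnd1, Ccnd2 and Ccnd3 add up to the whole, so a lower share of 1 gene raises those of the others. Their tests are therefore tied and are not separate evidence for each gene. The share of Ccnd1 was 67.6 ± 15.1% (SD, n = 12) in the DMSO control lines and 39 ± 13.8% (SD, n = 17) in the paclitaxel resistant lines, a difference of -28.6 percentage points (two-sided permutation test, 100000 resamples, p = 6e-05, adjusted p = 0.0003 over the 5 shares tested). The share of Ccnd2 was 5.82 ± 15.5% and 25.6 ± 22.2%, a difference of 19.8 points (permutation p = 0.014, adjusted p = 0.0233). The share of Ccnd3 was 26.6 ± 8.41% and 35.4 ± 22.7%, and its difference of 8.78 points did not pass the 0.05 threshold used for shares (permutation p = 0.219). Without the libraries labelled DMSO 12 and Pac H9, the difference for Ccnd1 was -32.5 points (permutation test, adjusted p = 0.00015) and that for Ccnd2 23.9 points (adjusted p = 0.0082). Without the 7 libraries above 40 on the first component they were -27.3 points (adjusted p = 0.0031) and 20.1 points (adjusted p = 0.0704).

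**Figure D2:**
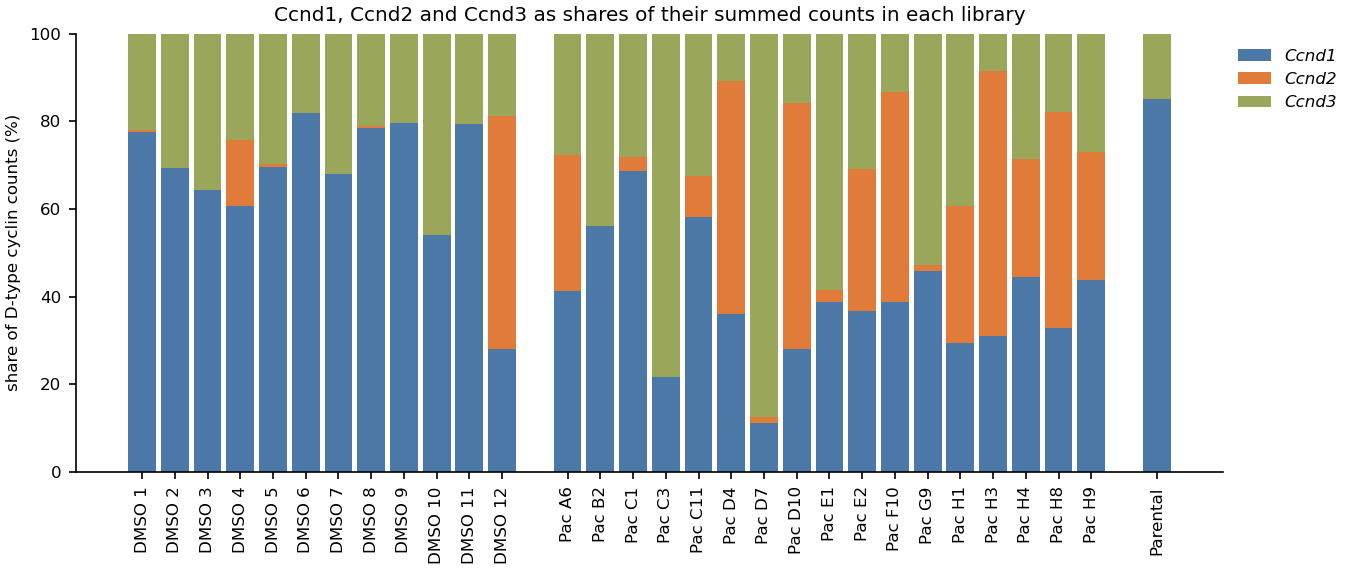
Counts of Ccnd1, Ccnd2 and Ccnd3 as percentages of their sum in each of the 30 libraries, grouped as DMSO control, paclitaxel resistant and parental. Ccnd1 holds the largest share of tags in 11 of the 12 DMSO control libraries, the library labelled DMSO 12 being the exception, while the largest share of tags belongs to Ccnd1 in 7, Ccnd2 in 5 and Ccnd3 in 5 of the paclitaxel resistant libraries.

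In the DMSO control libraries apart from the one labelled DMSO 12, Ccnd1 made up 54.0% (DMSO 10, Wilson 95% interval 44.3 to 63.4%) to 81.8% (DMSO 6, 75 to 87.1%) of the D-type cyclin counts. In the paclitaxel resistant libraries the mixture differed from line to line. Ccnd2 held 60.6% in Pac H3 (Wilson 95% interval 52.3 to 68.2%), 56.1% in Pac D10 (45.3 to 66.3%) and 53.2% in Pac D4 (48.6 to 57.7%). Ccnd3 held 87.4% in Pac D7 (82.5 to 91.2%) and 78.4% in Pac C3 (65.4 to 87.5%). The library labelled DMSO 12 was 53.2% Ccnd2 (45.0 to 61.3%) and 28.1% Ccnd1 (21.3 to 36.0%). These intervals cover counting error only, and a count is an independent molecule only if molecular identifiers were collapsed. The 11 other DMSO control libraries all had a higher Ccnd1 share than 13 of the 16 paclitaxel resistant libraries apart from Pac H9.

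The kinases that the D-type cyclins bind are shown by the 250 bases before their annotated starts (RefSeq, GRCm38.p6), because the cells carry a Myc transgene and the balance of the kinases was compared. The Cdk6 start in RefSeq lies inside the gene as GENCODE M21 gives it, whose start lies further upstream. CACGTG, the E-box letters that Myc and Max bind, is in capitals.
Cdk4, chr10:127063285-127063534, plus strand: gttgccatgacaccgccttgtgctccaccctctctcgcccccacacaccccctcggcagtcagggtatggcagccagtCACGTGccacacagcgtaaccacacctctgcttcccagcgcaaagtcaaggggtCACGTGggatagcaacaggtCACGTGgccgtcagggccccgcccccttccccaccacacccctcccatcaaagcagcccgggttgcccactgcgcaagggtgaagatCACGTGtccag
Cdk6, chr5:3343643-3343892, plus strand: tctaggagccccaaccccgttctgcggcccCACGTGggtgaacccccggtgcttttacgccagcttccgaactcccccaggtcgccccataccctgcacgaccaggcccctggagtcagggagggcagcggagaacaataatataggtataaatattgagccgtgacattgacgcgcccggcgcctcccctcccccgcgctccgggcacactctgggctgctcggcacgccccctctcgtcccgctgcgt
The Cdk4 stretch holds CACGTG 4 times and the Cdk6 stretch 1 time. The motif reads the same on both strands and is found in 7.15% of the 32851 promoter windows of 300 bases (250 before to 50 after a start), and 8 of these windows hold it at least 4 times. The E2F letters TTTCGCGC, TTTGGCGC and TTTCCCGC, searched on both strands, were in none of the 8 windows found for 6 of the genes (Ccnd3, Ccne1, Cdk4, Cdk6, Cdkn1b and Cdkn2c). A match is a description of letters and was not tied to a level here.

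Cdk6 (ENSMUSG00000040274.11, chr5:3341485-3531008, plus strand), the D-cyclin kinase prominent in blood cells, ranged from 12.8 CPM (DMSO 9, 13 counts) to 84.2 CPM (DMSO 5) with a median of 38.9 in the DMSO control lines. It ranged from 32.8 CPM (Pac D10) to 129 CPM (Pac F10) with a median of 64.1 in the paclitaxel resistant lines. The groups overlapped, with 7 of 17 paclitaxel resistant lines above the highest DMSO control and 14 of 17 above the control median. The means were 42.1 ± 17.7 (SD, n = 12) and 74.5 ± 32.4 CPM (SD, n = 17), and the log2 difference was 0.81 (SE 0.227, adjusted p = 0.0238, edgeR). Without the libraries labelled DMSO 12 and Pac H9 it was 0.83 (adjusted p = 0.0255, edgeR). DMSO 5 decided the call at 0.01, since without it the log2 difference was 0.95 and the adjusted p 0.00909, while the highest adjusted p with any single library left out was 0.0449. DESeq2 gave an adjusted p of 0.00632 with all libraries. Without the 7 libraries above 40 on the first component the log2 difference was 0.65 (adjusted p = 0.079, edgeR).

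Cdk4 (ENSMUSG00000006728.12, chr10:127063534-127067920, plus strand), the other D-cyclin kinase, had means of 325 ± 47.2 CPM (SD, n = 12) and 330 ± 108 CPM (SD, n = 17). Its log2 difference was 0.02 (SE 0.154, adjusted p = 0.941, edgeR), with a 95% interval of -0.28 to 0.33, and its sign turned without any one of 5 libraries, Pac H4 among them. The log2 difference was 0.25 without the 7 libraries above 40 on the first component (adjusted p = 0.243, edgeR). The spread was wider among the paclitaxel resistant lines, with 5 of 17 above the highest DMSO control (403 CPM) and 6 of 17 below the lowest (253 CPM). Pac D7 was lowest at 127 CPM and Pac H4 highest at 481 CPM. The share of Cdk6 in the summed counts of the pair was 11.6 ± 4.75% in the DMSO control lines and 19.5 ± 8.90% in the paclitaxel resistant lines, a difference of 7.86 points (two-sided permutation test, 100000 resamples, p = 0.0101, adjusted p = 0.0233 over the 5 shares). It was above every DMSO control library in 7 of 17 paclitaxel resistant libraries. The difference was 8.06 points without the libraries labelled DMSO 12 and Pac H9 (permutation test, adjusted p = 0.0203), and 4.05 points without the 7 libraries above 40 on the first component, where it no longer passed (adjusted p = 0.271).

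Cdk6 lies on chromosome 5, 5.27 Mb from Abcb1b, the gene of the P-glycoprotein pump that exports paclitaxel. Abcb1b was 33.7 ± 14.2 CPM (SD, n = 12) in the DMSO control lines and 90.8 ± 49.8 CPM (SD, n = 17) in the paclitaxel resistant lines, and rose by 1.45 on the log2 scale (SE 0.244, adjusted p = 0.00035, edgeR). Of the 17 paclitaxel resistant lines, 6 were above 100 CPM of Abcb1b, 5 were above 100 CPM of Cdk6, and 3 were above it for both (Pac F10, Pac C11 and Pac E2). The highest Abcb1b, 257 CPM in Pac G9, went with 50.8 CPM of Cdk6. The bound of 100 CPM was chosen after the values were seen.

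**Figure D3:**
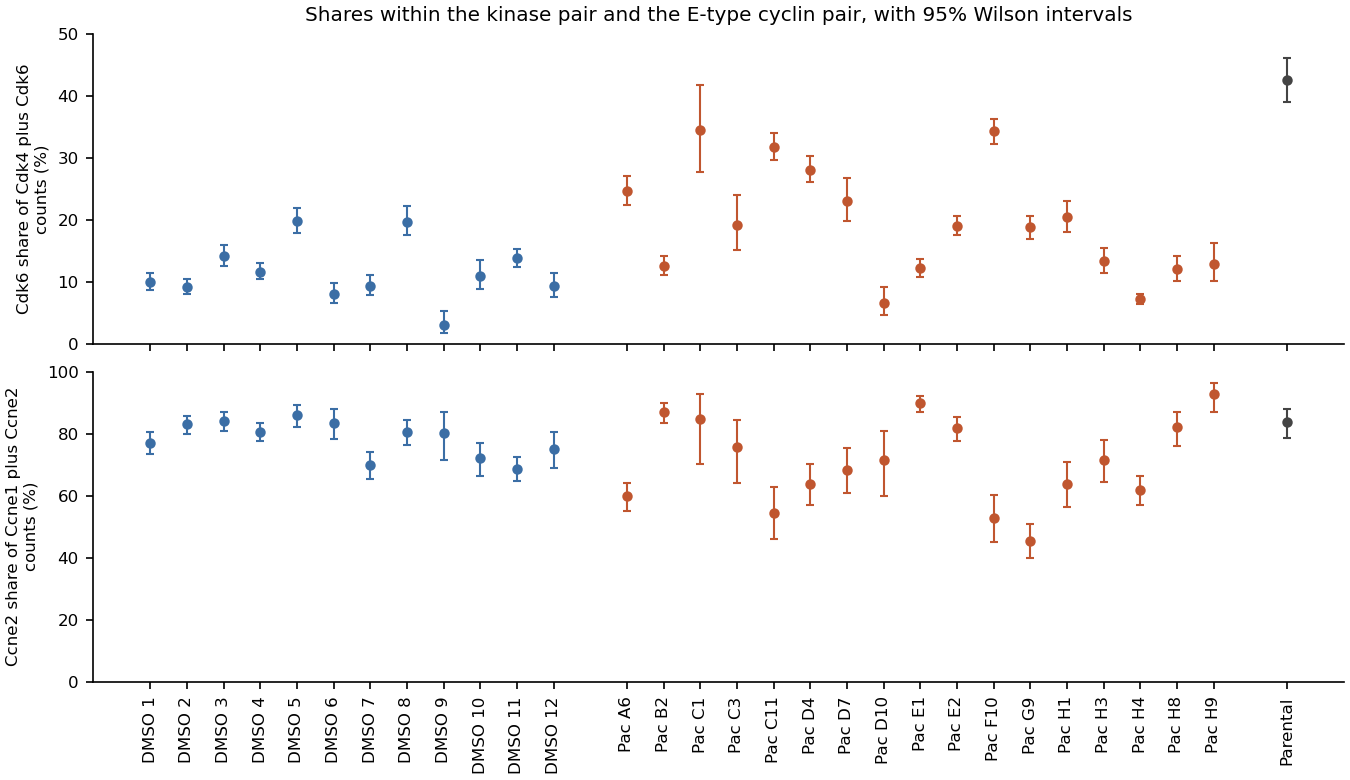
Upper panel, Cdk6 as a percentage of Cdk4 plus Cdk6 counts. Lower panel, Ccne2 as a percentage of Ccne1 plus Ccne2 counts. Each point is a library (blue, DMSO control; orange, paclitaxel resistant; grey, parental) with its Wilson 95% interval for counting error. The Cdk6 share reaches 34.5% in Pac C1 and 34.3% in Pac F10, and no DMSO control library is above 19.8%. The Ccne2 share is lowest in Pac G9, at 45.3%.

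Both E-type cyclins had a lower mean in the paclitaxel resistant than in the DMSO control lines, and neither passed the test. Ccne2 (ENSMUSG00000028212.16, chr4:11191351-11204779, plus strand) ranged narrowly from 57.9 to 102 CPM (median 83.1) in the DMSO control lines. It ranged from 14.3 to 114 CPM (median 51.6) in the paclitaxel resistant lines, where 10 of 17 were below the lowest control and 2 of 17 above the highest. The means were 83.5 ± 13.1 and 56.8 ± 31.3 CPM (SD, n = 12 and 17), with a log2 difference of -0.56 (SE 0.242, adjusted p = 0.144, edgeR). The lines below 30 CPM were Pac C11, Pac F10, Pac G9, Pac D4 and Pac D7, and the highest was Pac E1. All 5 of the low lines are among the 7 libraries above 40 on the first component, and without those the log2 difference of Ccne2 was -0.26 (adjusted p = 0.357, edgeR). The part of that component in the result was not tested. Ccne1 (ENSMUSG00000002068.16, chr7:38097984-38107534, minus strand) was 23 ± 7.14 CPM and 19.4 ± 11.5 CPM (SD, n = 12 and 17), with a log2 difference of -0.23 (SE 0.226, adjusted p = 0.543, edgeR) and a 95% interval of -0.67 to 0.21. Pac A6 stood highest at 58.0 CPM, above the top DMSO control of 37.2 CPM, and without it the log2 difference of Ccne1 was -0.43 (adjusted p = 0.167, edgeR). The share of Ccne2 in the pair was 78.4 ± 5.80% and 71.0 ± 13.9%, a difference of -7.41 points that did not pass (two-sided permutation test, 100000 resamples, p = 0.0944, adjusted p = 0.118 over the 5 shares). That difference was -0.891 points, from 79.3% to 78.4%, without the 7 libraries above 40 on the first component (permutation p = 0.798).

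**Figure D4:**
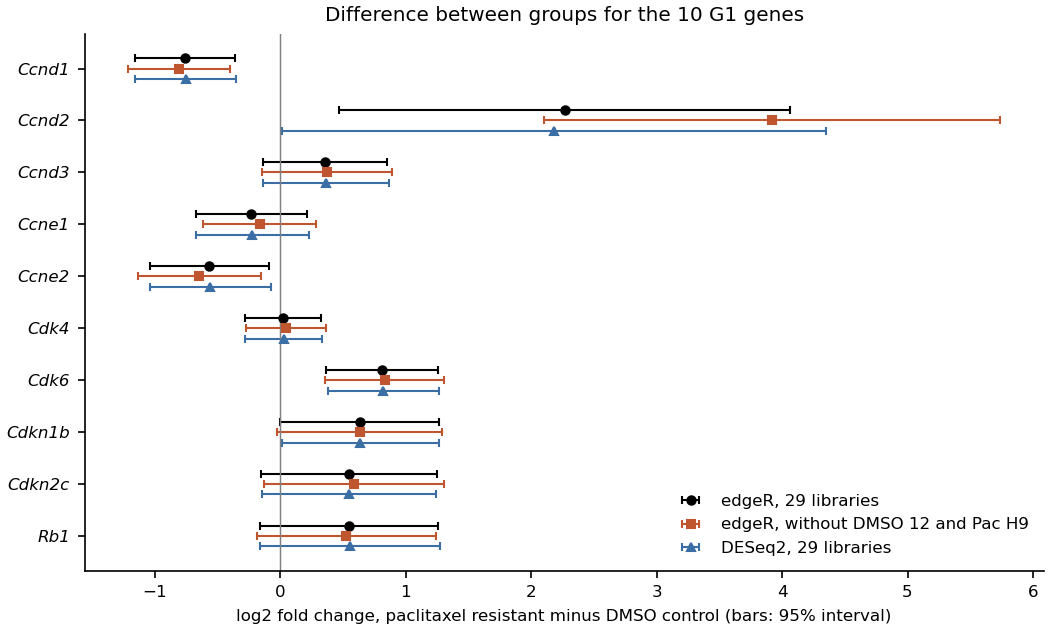
Log2 difference of the 10 genes, paclitaxel resistant minus DMSO control, with bars for the 95% interval (the fitted SE times the normal quantile). Black circles are edgeR with 29 libraries, orange squares edgeR without the libraries labelled DMSO 12 and Pac H9, and blue triangles DESeq2 with 29 libraries. Ccnd2 moves from 2.27 to 3.92 when these libraries are left out, and the other 9 genes stay nearly in place.

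The inhibitors and Rb1 had higher means in the paclitaxel resistant lines, with a larger spread and no call. Cdkn1b (ENSMUSG00000003031.14, chr6:134920401-134925513, plus strand), which encodes p27, ranged from 4.86 to 17.1 CPM (median 9.25) in the DMSO control lines and from 1.03 to 36.6 CPM (median 14.5) in the paclitaxel resistant lines. The log2 difference was 0.63 (SE 0.322, adjusted p = 0.215, edgeR), with 7 of 17 lines above the highest control and 2 of 17 below the lowest. Pac D7, Pac A6, Pac F10 and Pac G9 were above 25 CPM, and Pac D10 held 1 count. Cdkn2c (ENSMUSG00000028551.14, chr4:109660876-109667189, minus strand), which encodes p18, ranged from 5.37 to 31.8 CPM (median 11.2) and from 2.08 to 66.4 CPM (median 13.7). Its log2 difference was 0.55 (SE 0.358, adjusted p = 0.345, edgeR), and Pac G9 was highest with 417 counts. Rb1 (ENSMUSG00000022105.6, chr14:73183673-73325822, minus strand), the target of the G1 kinases, ranged from 2.92 to 25.6 CPM (median 6.93) and from 2.08 to 31.5 CPM (median 8.76), and its log2 difference was 0.55 (SE 0.363, adjusted p = 0.35, edgeR). Without DMSO 11, the control with the most Rb1 (177 counts), the log2 difference of Rb1 was 0.90 (adjusted p = 0.0902, edgeR), and without Pac D7 it was 0.38 (adjusted p = 0.527). Without Pac G9 the log2 difference of Cdkn2c was 0.28. The fitted differences of all 3 genes rested on the method, since limma-voom gave 0.05 for Cdkn1b, 0.03 for Cdkn2c and 0.16 for Rb1. Without the 7 libraries above 40 on the first component edgeR gave -0.08, -0.06 and 0.12. Several libraries hold Rb1 by few counts, from 1 in Pac C1 and 4 in Pac D10 and Pac H9, and after thinning to equal depth 3 of 12 DMSO control and 8 of 17 paclitaxel resistant libraries had more than 3 counts.

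The same paclitaxel resistant lines recurred at the upper end for these genes. Of the 5 lines with the most Cdkn1b, 4 were among the 5 with the most Cdkn2c (Pac A6, Pac C11, Pac D7 and Pac G9) and 4 among the 5 with the most Rb1 (Pac A6, Pac C11, Pac D7 and Pac F10). Cdkn2c and Rb1 shared Pac A6, Pac C11, Pac C3 and Pac D7. The lines with the most Ccnd3 and with the most Cdkn2c also had 4 of 5 in common (Pac A6, Pac C3, Pac D7 and Pac G9). These were the largest overlaps among all pairs of the G1 genes described here, and every other pair shared 0 to 3 lines. The overlap expected by chance, or between pairs of genes at large, was not computed. The recurrence is therefore not read as particular to these genes. No line was among the 5 highest for Cdkn1b, Cdkn2c or Rb1 and among the 5 highest for Cdk4. Of the lines named here, all but Pac C3 are among the libraries above 40 on the first component, and DMSO 11, the control among those libraries, had the most Cdkn1b and the most Rb1 of the DMSO controls. The part of that component in the result was not tested. These counts describe 17 lines of unequal depth and are given without a test. Pac A6 and Pac D7 show how different such lines can be. Pac A6 had Ccnd1 at 35.9, Ccnd2 at 27.2, Ccne1 at 58.0 and Ccne2 at 86.2 CPM beside Cdkn1b at 33.3 CPM. Pac D7 had Ccnd1 at 7.03, Ccnd2 at 0.844, Ccne1 at 13.5 and Ccne2 at 29.2 CPM beside Cdkn1b at 36.6 CPM.

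**Figure D5:**
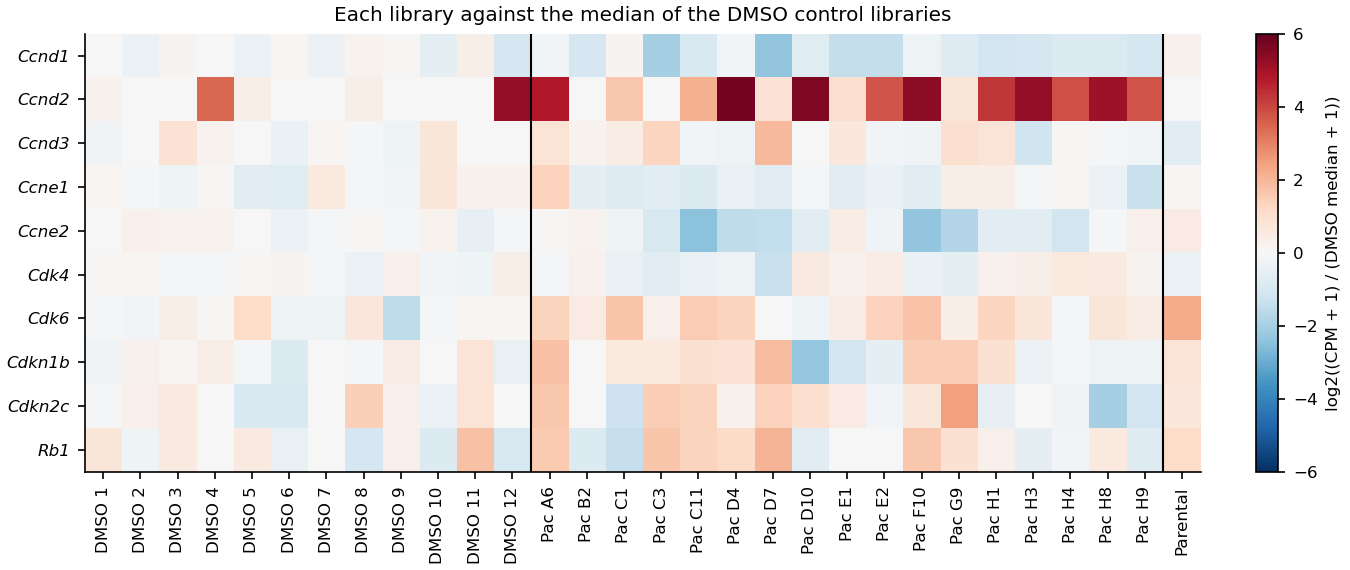
Each cell is log2((CPM + 1) / (DMSO control median + 1)) of a gene (rows) in a library (columns), red above and blue below the median of the 12 DMSO control libraries, with vertical lines between the groups. Ccnd1 is below the control median in 16 of 17 paclitaxel resistant lines, Ccnd2 has at least 1 count in 15 of 17 and in 5 of 12 DMSO control libraries (its control median is 0), and Cdkn1b, Cdkn2c and Rb1 are all above it in Pac G9, Pac F10, Pac D7, Pac D4, Pac C11, Pac C3 and Pac A6, of which 6, all but Pac C3, lie above 40 on the first principal component.

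Other inhibitors of the same kinases were read for comparison. Cdkn2a, whose locus encodes both p16INK4a and p19ARF, had 0 counts in all 30 libraries, as did Cdkn2b. A count of 0 allows up to 6.23 CPM in the smallest library and 0.435 CPM in the largest, and a tag at the 3′ end does not report which part of the locus was deleted. Cdkn1a (p21), a p53 target, was 0 to 34.9 CPM in the DMSO control lines and 0.851 to 243 CPM in the paclitaxel resistant lines, with the maximum in Pac G9, and its log2 difference was 0.88 (SE 0.697, adjusted p = 0.441, edgeR). Pac G9 decided that sign, since the log2 difference was -0.40 without it (adjusted p = 0.699, edgeR). It was also negative with all libraries in DESeq2 (-0.41) and limma-voom (-0.22), and in edgeR without the 7 libraries above 40 on the first component (-0.56, adjusted p = 0.525), and the medians were 10.7 CPM in the DMSO control and 6.17 CPM in the paclitaxel resistant lines. Cdkn2d (p19INK4d, another INK4 inhibitor) was at 108 ± 38.2 and 94.4 ± 58.1 CPM (SD, n = 12 and 17), and its log2 difference was -0.20 (SE 0.279, adjusted p = 0.685, edgeR). Lockd, a long noncoding RNA gene 3579 bases beyond the end of Cdkn1b, was at 346 ± 53.9 and 265 ± 109.5 CPM (SD, n = 12 and 17). Its log2 difference of -0.39 (SE 0.165, adjusted p = 0.143, edgeR) had the opposite sign to that of Cdkn1b, and neither passed the test. The signs were the same without the 7 libraries above 40 on the first component, where edgeR gave -0.31 for Lockd and -0.08 for Cdkn1b. The adjusted p of Lockd was 0.0114 in limma-voom, 0.0464 in edgeR with a depth covariate and 0.129 in DESeq2.

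No gene of the other G1/S lists passed the test. Of 30 further G1/S genes (Cdk2 and its activators, other inhibitors, pocket proteins, E2F factors, Skp2, Fbxw7 and the DREAM subunits), 26 were tested. None passed an adjusted p under 0.01 in edgeR's quasi-likelihood test, and 2 had an unadjusted p under 0.05, beside 25.1% of all genes, with a median log2 difference of -0.01 beside 0.07 over all genes. The median was 0.12 beside 0.02 without the 7 libraries above 40 on the first component. The lowest p-values belonged to Fbxw7, the ubiquitin ligase receptor that marks cyclin E for degradation (14.5 ± 8.74 and 24.7 ± 18.5 CPM, log2 difference 0.77, SE 0.346, adjusted p = 0.163), and E2f1, the activating E2F factor (13.4 ± 5.70 and 21.2 ± 17.7 CPM, log2 difference 0.68, SE 0.327, adjusted p = 0.191). Of 40 E2F targets, mostly replication genes, 39 were tested. None passed at 0.01, 9 had an unadjusted p under 0.05, beside 25.1% of all genes, and the median log2 difference was -0.11, with 14 positive and 25 negative. The direction turned without the 7 libraries above 40 on the first component, where the median was 0.12, with 29 positive and 10 negative (0.02 over all genes), and in limma-voom it was -0.01. At an adjusted p under 0.05 there were 2 of 39 with all libraries, both on the lower side, beside 3.63% of all genes. Hells, a chromatin remodelling helicase, was at 149 ± 42.7 and 94.6 ± 47.6 CPM (log2 difference -0.68, SE 0.187, adjusted p = 0.0216), and Dnmt1, the maintenance DNA methyltransferase, at 133 ± 36.2 and 98.7 ± 21.4 CPM (log2 difference -0.43, SE 0.135, adjusted p = 0.0415). Without the 7 libraries the differences were -0.52 (adjusted p = 0.106, edgeR) for Hells and -0.25 (adjusted p = 0.212) for Dnmt1. Over both lists, the likelihood ratio test and DESeq2 each called 1 gene at 0.01, Hells, and limma-voom called 2, Hells on the lower side and Uhrf1, a partner of Dnmt1, on the higher side, of 65 genes tested, beside 4.74%, 5.22% and 8.61% of all genes called by these methods. The log2 difference of Uhrf1 was 0.48 (adjusted p = 0.111, edgeR) with all libraries and 0.73 (adjusted p = 0.00482) without the 7 libraries.

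Of 21 listed genes that act upstream of the D-type cyclins (AKT, FOXO, STAT5, MAP kinase, ID and Polycomb genes and the F-box proteins of cyclin D turnover), 20 were matched and 18 tested. At an adjusted p under 0.01 none was higher and 1 was lower in edgeR's test, beside 1.21% of all genes on the lower side. The likelihood ratio test, DESeq2 and the fit with a depth covariate each called 2 genes of the list, 1 higher (Cbx2) and 1 lower (Klf2), limma-voom called 4, 1 higher (Cbx2) and 3 lower (Bmi1, Id2 and Klf2), and after thinning none was called. Of all genes, 4.74%, 5.22%, 3.2% and 8.61% were called by the likelihood ratio test, DESeq2, the depth covariate and limma-voom. The gene called in edgeR's quasi-likelihood test, named after its values were seen, was Klf2, a transcription factor that holds resting lymphocytes in quiescence. It fell by 1.31 on the log2 scale (SE 0.272, adjusted p = 0.00283), from 62.4 ± 21.4 CPM (SD, n = 12) to 25.1 ± 17.7 CPM (SD, n = 17). After thinning to equal depth the log2 difference of Klf2 was -1.12 and the call at 0.01 was lost (adjusted p = 0.0176, edgeR). The median log2 difference over this list was 0.43 beside 0.07 over all genes tested. It was 0.15 in limma-voom, -0.12 after thinning, where 9 of the genes were tested, and -0.05 without the 7 libraries above 40 on the first component. At an adjusted p under 0.05, where 3.92% of all genes were on the higher and 3.63% on the lower side, the list held 1 of 18 on the higher and 2 of 18 on the lower side, Klf2 included. The further genes were Cbx2, a Polycomb subunit as Bmi1 is, with a log2 difference of 1.39 (SE 0.398, adjusted p = 0.0277, edgeR), and Id2, an inhibitor of basic helix-loop-helix factors, with a log2 difference of -1.29 (SE 0.38, adjusted p = 0.0324). Without the 7 libraries the difference of Id2 was -0.99 (adjusted p = 0.109, edgeR), and Cbx2 did not pass the filter.

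The genes whose log2 CPM followed each cyclin or kinase most closely across all 30 libraries were described without a test, since the libraries share depth and treatment. For Ccnd1, the gene of the 10 with the lowest p, these were Strbp (Pearson r = 0.785), Gabpb2 (r = 0.779) and Syncrip (r = 0.77). For Ccnd2 they were Akr1a1 (r = 0.797), Chmp1a (r = 0.709) and Mt1 (r = 0.697), and for Cdk6 they were Thumpd1 (r = 0.706), Sdccag8 (r = 0.698) and Ubxn7 (r = 0.687). Ccnd2 and Cdk6 were added to this search after the values were seen. Opposite-strand genes overlap Ccnd1 (LTO1), Ccne2 (Ints8), Cdk4 (Tspan31), Rb1 (Rcbtb2 and Lpar6) and Ccnd3 (Bysl). The strand used for counting is not given in the sources used here, so reads in the overlaps cannot be told apart.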

How the data were processed

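3′-end digital gene expression libraries of 30 mouse lymphoma lines were prepared with a barcode and a random molecular identifier per cDNA, in 2 subpools. The authors aligned reads to GRCm38 with STAR (2.5.1b in the submitters' processing notes) and deposited whole-number counts per gene without normalization. Whether molecular identifiers were collapsed and which line was in which subpool are not given in the sources used here, so no batch was modelled. Any part of the subpools in the differences between the treatments was not tested and cannot be told apart here. A symbol was found for 54349 of 55401 identifiers. Positions are those of GENCODE M21, where the study names M25.

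Groups were taken from the labels. The quasi-likelihood F test of edgeR 4.0.16 was run on the counts in R 4.3.3 (filterByExpr, TMM normalization, Benjamini-Hochberg adjustment over all genes tested, threshold 0.01), with the parental library outside the fit. The test compares separate wells of 1 parental line. Shares were tested by permutation with 100000 resamples in Python 3.11.15 (scipy 1.17.1, threshold 0.05). Totals of 480919 to 6739131 counts put 3 counts at 6.23 to 0.435 CPM. Libraries were thinned to 480919 counts as an alternative. Other alternatives were the likelihood ratio test, DESeq2 1.42.0, limma-voom (limma 3.58.1), RLE factors, other filters, a threshold of 0.05, a depth covariate and left-out libraries. On simulated data for this comparison (9316 genes tested), 180 of 186 tested genes changed 4-fold were recovered, with 2 false calls and 0 calls without change. Changes smaller than 4-fold, such as those fitted for Ccnd1, Cdk6 and Ccne2, were not simulated, so the recovery says nothing of them.

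The genes and lists were chosen with earlier results of these data known. Named genes are the 10 genes, Cdkn2a, Cdkn1a, Lockd and Abcb1b, list genes called at 0.01 (or the 2 lowest p-values of a list) for the further G1/S and E2F target lists, and the 3 genes most correlated with the gene of lowest p. Cdkn2b, Cdkn2d, Uhrf1, Klf2, Cbx2, Bmi1, Id2, Cd79b and Ms4a1 were named after their values were seen. Value columns not used numbered 0. One B cell marker of the list is not reported here.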

Additional observations from a re-analysis of the deposited data

Results flagged for a closer look

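The parental library stood outside the comparison and had no replicate of its own. Cdk6, Ccne2 and, by a narrow margin, Cdkn1b were higher in it than in any of the 12 DMSO control libraries. The share of all genes that lay above every DMSO control in this library was not computed, so these genes are described only. The parental library is named by its label, which the doubt over the labels from DMSO 12 on includes. Cdk6 was at 187.2 CPM (316 counts), above all 29 evolved lines, and made up 42.5% of the Cdk4 plus Cdk6 counts (Wilson 95% interval 39 to 46.1%), where no DMSO control library was above 19.8%. Ccne2 was at 118.5 CPM (200 counts), also above all 29 evolved lines. Cdkn1b was at 17.18 CPM (29 counts), beside 17.1 CPM in the highest DMSO control, and 10 of the 17 paclitaxel resistant lines were below it. Ccnd3 was at 8.30 CPM (14 counts), below all 12 DMSO control libraries. Ccnd2 had 0 counts in the parental library, and Ccnd1 was at 47.4 CPM, above 11 of 12 DMSO control lines and all 17 paclitaxel resistant lines. Its D-type cyclin counts were 85.1% Ccnd1 (76.5 to 90.9%). With 1 parental library, a difference from the evolved lines was not tested.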

How the results depend on the processing

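For all genes, 208 calls at 0.01 became 448 with the likelihood ratio test, 493 with DESeq2, 813 with limma-voom, 324 without the libraries labelled DMSO 12 and Pac H9, 100 after thinning (5 of the 10 genes, Ccnd2, Ccnd3, Cdkn1b, Cdkn2c and Rb1, were then not fitted) and 713 at a threshold of 0.05, and ran from 139 (without DMSO 4) to 300 (without DMSO 12) with 1 library left out. For the 10 genes, 0 calls became 2 with the likelihood ratio test, 2 with DESeq2, 3 with limma-voom, 1 without the libraries labelled DMSO 12 and Pac H9 and 2 at 0.05, and ran from 0 to 1 with 1 library left out. For the other G1/S and E2F-target genes, 0 calls became 1 with the likelihood ratio test, 1 with DESeq2, 2 with limma-voom, 1 with log10 total counts as a covariate and 2 at 0.05. The cause of these shifts was not tested. RLE factors, no filter and the strict filter (10 counts in 12 libraries) kept the counts of calls for all 3 within 1.5 times. The log2 difference of Cdk4 ran from -0.027 to 0.072 with 1 library left out and was negative without DMSO 8 (-0.0069), Pac B2 (-0.00048), Pac E2 (-0.0071), Pac H3 (-0.00040) or Pac H4 (-0.027). Without the 7 libraries above 40 on the first principal component (DMSO 11 and 6 paclitaxel resistant lines), all genes had 246 calls, the 10 genes 1 and the further lists 1, and the log2 differences of Cdkn1b (-0.084) and Cdkn2c (-0.061) turned negative. In that setting the share differences of Ccnd2 (20.1 points) and Cdk6 (4.05 points) no longer passed, with that of Ccnd1 at -27.3 and that of Ccne2 at -0.891. The share differences kept their sign and side of 0.05 under the other alternatives run (the libraries labelled DMSO 12 and Pac H9 left out, also with DMSO 4, thinning, a rank-sum statistic, and each library left out). With 1 library left out the Ccnd1 difference ran from -32.2 to -26.9 points, Ccnd2 from 17.6 to 24.1 and Cdk6 from 6.92 to 8.66. Leaving out DMSO 4, each library in turn, and the 7 libraries was chosen after seeing the data. No paired analysis was possible because the paclitaxel resistant lines carry well names and no replicate numbers shared with the DMSO control lines. Depth limits the low genes most, since 3 counts correspond to 6.23 CPM in Pac C1.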
